A study of Mus musculus with 6 samples.

Results

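Cytosolic ribosomal proteins are the protein parts of the ribosome, the particle that translates messenger RNA. They were taken from a mouse RNA sequencing table by their symbols, which begin with Rpl, Rps or Rplp and a number. The Rps6k kinases and symbols marked as pseudogenes (-ps) were left out. The rule found 89 of 44169 gene symbols, in 93 of 44519 rows of the table. Of these rows 85 passed the filter on low values and were tested, 50 of the large and 35 of the small subunit, among 15037 tested rows in all. One of the symbols, Rps19bp1, matches by spelling only and encodes a regulator of the deacetylase Sirt1. The rule counted it, among the rows of the small subunit, but it is no ribosomal protein.

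The samples were cells sorted for GFP out of the olfactory neuroepithelium and labelled as horizontal basal cells (HBCs), the quiescent stem cells that lie on the basal lamina of that tissue. In the TNF group (replicates 1, 3 and 4) the mice carried Krt17-EGFP, Cyp2g1-rtTA and TRE-TNF and were labelled as 6 weeks on doxycycline. The control group (replicates 1, 2 and 4) carried Krt17-EGFP alone and was labelled as without doxycycline, so the Krt17-EGFP reporter was common to all 6 libraries. Cyp2g1 is a promoter of sustentacular cells, the supporting cells of the epithelium, so the TNF transgene is driven from those cells and not from the HBCs themselves. The transgenes, the doxycycline and TNF itself came together, and their effects cannot be told apart.

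A ribosome needs nearly every one of its proteins in equal number, and their genes are among the most highly transcribed in most cells. Their mRNAs start with a run of pyrimidines, the terminal oligopyrimidine (TOP) tract, through which mTOR signalling controls how well they are translated. In stem cells of several tissues the output of ribosomes is low in quiescence and increases on activation. RNA levels alone do not measure that output.

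Levels were in fragments per kilobase of transcript and per unit of sequencing depth (FPKM). The library totals ran from 688190 to 838417 FPKM, and read depth is unknown. The label HBC was checked against marker genes. The summed FPKM of 4 HBC marker rows (Krt5, Trp63, Icam1 and the merged row of Krt14 and Krt17) was 7090.5, 4692 and 4522 in TNF replicates 1, 3 and 4, against 2334, 3016 and 643 in control replicates 1, 2 and 4. Markers of mature olfactory neurons were also present. Their 7 rows summed to 1073, 34.1 and 25.0 FPKM in TNF replicates 1, 3 and 4, against 3326, 3102 and 6219 in control replicates 1, 2 and 4, so in every control library they exceeded the HBC list. In the same order, 5 immature neuron rows summed to 295, 121 and 138 FPKM, against 4952, 3461 and 7713. Sustentacular and gland markers (6 rows) had 443, 313 and 276 FPKM, against 919, 950 and 730. B and plasma cell markers (6 rows) had 646, 573 and 433 FPKM, against 98.1, 125 and 948. TNF replicate 1 stood apart from the other TNF libraries, with fibroblast markers summing to 41.5 FPKM against 1056 and 1522 there, and endothelial markers to 1.03 FPKM against 151 and 213. Control replicate 4 stood apart from the other controls through Ftl1, a ferritin light chain gene, which held 12.1% of its FPKM, against 4.38% and 4.32%. The main counts and medians are also given without these libraries, a choice made with earlier results of these data known. TNF replicate 1 was also the highest library, and control replicate 4 the lowest control, for most ribosomal protein rows.

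Ribosomal protein mRNAs were abundant in every library. Their rows had a median mean level of 214 FPKM, against 11.9 FPKM for all tested rows, and 52 of the 85 lay among the top 5% of tested rows. Rps27, a zinc-finger protein of the small subunit, was the highest with 1553, 606 and 639 FPKM in TNF replicates 1, 3 and 4, against 994, 1000.4 and 517 FPKM in control replicates 1, 2 and 4. This gene was highest in TNF replicate 1 and lowest in control replicate 4, and its groups overlapped. Rpl32, of the large subunit, had 1323, 606 and 575 FPKM in TNF cells, against 781, 757 and 554 FPKM in control cells. Rpl41, the smallest ribosomal protein, had 1022, 484 and 497 FPKM in TNF cells, against 825, 747 and 669.8 FPKM in control cells. Rpl35, which lines the rim of the exit tunnel, had 1179, 483 and 519 FPKM in TNF cells, against 767, 676 and 703 FPKM in control cells. All of these overlapped between groups, with TNF replicate 1 above every control and TNF replicates 3 and 4 below control replicates 1 and 2.

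Of the 85 tested rows 79 had a mean of at least 50 FPKM. The lowest of these was Rpl5 at 59.2 FPKM, and Rpl7l1, a paralog of Rpl7, lay just outside at 49.7 FPKM. Some symbols had more than 1 row, such as Rpl37 with 3 rows, of which the low ones were tested at means of 4.90 and 2.75 FPKM. The 8 rows that were not tested were below 1 FPKM in every library. Among them Rpl10l and Rps12l1 were listed at 0 throughout. Rpl3l, the heart and skeletal muscle form of Rpl3, reached 0.439 FPKM, and Rpl39l, a testis form of Rpl39, reached 0.588 FPKM. The others were Rps3a2, Rps3a3, Rps12l2 and the second row of Rps4l. The GENCODE M21 annotation lists Rps12l1, Rps3a2 and Rps3a3 as processed pseudogenes, though their symbols lack the -ps mark.

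**Figure D1:**
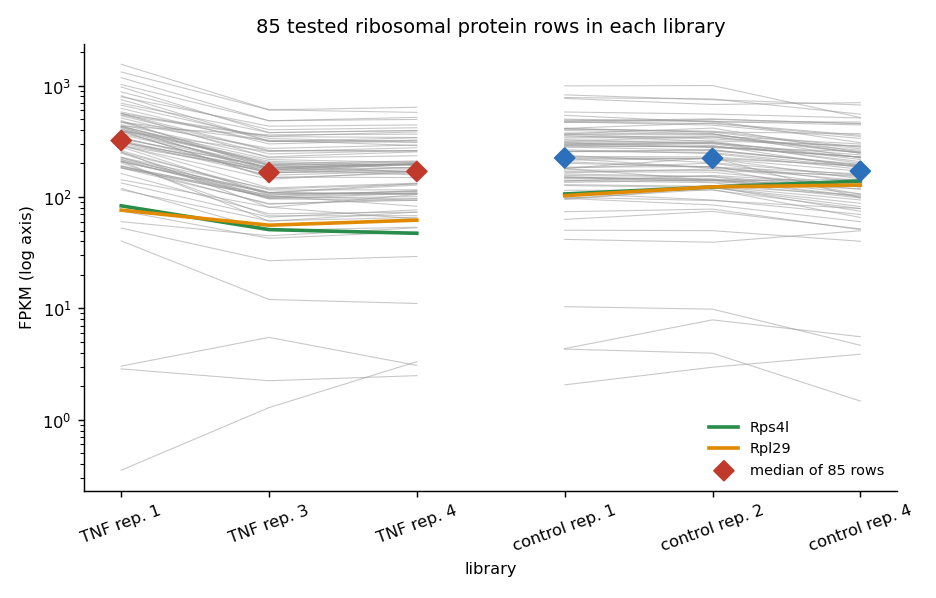
FPKM (log axis) of the 85 tested ribosomal protein rows in each library. Each thin line follows a row across the libraries of a group, the diamonds give the median (red for TNF, blue for control), and Rpl29 and Rps4l are drawn in colour. The medians were 321, 166 and 169 FPKM in TNF replicates 1, 3 and 4, against 224, 222 and 171 FPKM in control replicates 1, 2 and 4.

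The genes are spread over 19 chromosomes, so what they share was looked for in their promoters. RefSeq promoter sequences (GRCm38.p6, 250 bases before to 50 bases after the start) were matched for 64 of the 89 genes. The motif CCGGAAG, the core bound by ETS family factors such as GABP, was searched on both strands and was present for 25 genes (39.1%), against 9.93% of 27025 genes. AAGATGGC, the core of the YY1 motif, also on both strands, was present for 6 genes (9.38%), against 3.19%. CTTT was searched on the strand that reads as the mRNA does, within 5 bases of the start, as at the beginning of a TOP tract. It was present for 15 genes (23.4%), against 6.07%. Among 17491 protein-coding genes alone the shares were 12.9% for CCGGAAG, 3.57% for AAGATGGC and 5.60% for CTTT. Matches of different motifs overlapped in 0 promoters, and 7 genes held both CCGGAAG and CTTT. These are matches of letters, and no binding was measured.

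The sequences below run from 100 bases before to 15 bases after the annotated start and are shown because they carry these motifs, which are in capitals. Rps6 lies on the minus strand at chr4:86857353-86857467, Rpl38 on the plus strand at chr11:114668480-114668594, Rps10 on the minus strand at chr17:27635230-27635344 and Rps27 on the minus strand at chr3:90213634-90213748. Rps27rt, a copy of Rps27 that shares 91.1% of its 50-base words with it, lies on the minus strand at chr9:114982725-114982839. Of the motifs searched its window holds CTTT alone.
Rps6: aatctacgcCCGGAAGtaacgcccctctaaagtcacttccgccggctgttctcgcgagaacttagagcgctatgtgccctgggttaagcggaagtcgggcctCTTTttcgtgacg
Rpl38: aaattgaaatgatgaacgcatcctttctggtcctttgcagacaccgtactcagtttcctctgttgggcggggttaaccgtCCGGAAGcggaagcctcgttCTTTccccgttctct
Rps10: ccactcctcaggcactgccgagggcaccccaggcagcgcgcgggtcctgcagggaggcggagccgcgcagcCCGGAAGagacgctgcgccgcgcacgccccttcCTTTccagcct
Rps27: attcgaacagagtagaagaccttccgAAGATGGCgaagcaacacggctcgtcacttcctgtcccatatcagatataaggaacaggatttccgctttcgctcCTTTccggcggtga
Rps27rt: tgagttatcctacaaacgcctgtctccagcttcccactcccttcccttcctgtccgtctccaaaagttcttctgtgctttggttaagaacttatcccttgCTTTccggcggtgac

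The main question was whether ribosomal protein genes differed between the TNF and control groups of these sorted cells. The cells were labelled as HBCs but also held markers of other cells. With all 6 libraries few passed the test. Of the 85 rows 2 fell and 0 rose in TNF cells, at an adjusted p of 0.05 in limma with Benjamini-Hochberg adjustment over all 15037 rows. In that comparison 38.0% of all tested rows changed. Of all tested rows 27.2% were lower and 10.9% higher in TNF cells. At an unadjusted limma p of 0.05, 2 of the 85 passed, against no less than the 38.0% of all rows that passed when adjusted. The groups did not overlap for 1 row that was higher in TNF cells, against 16.8% of all rows, and for 2 rows that were lower, against 36.2%. Fewer cells of a type and less RNA per cell cannot be told apart in these bulk samples.

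Changes were measured on a log2 scale after adding 1 FPKM, so those of low genes are understated. The median log2 change of the members was -0.02, against -0.22 over all tested rows, with 39 above 0 and 46 below 0. For 77 of the 85 (90.6%) the log2 change was within 0.5 of no change, against 44.0% of all rows. The spread within groups was larger than elsewhere, with a median standard error of 0.32 on the log2 scale, against 0.25 over all rows. Rescaling the libraries moved these medians, and quantile normalization turned their order round. With median-of-ratios scaling the members' median was 0.21 and that of all rows -0.01, with upper-quartile scaling 0.13 and -0.09, with equal FPKM sums 0.10 and -0.11, and with quantile normalization 0.00 and 0.05. The sign of the members' median thus depends on the scaling, while 2 lower and 0 higher members were called under each of them. Over all rows median-of-ratios scaling gave 2300 higher and 3257 lower, and quantile normalization 2658 higher and 2867 lower, against 1635 and 4083 unscaled.

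**Figure D2:**
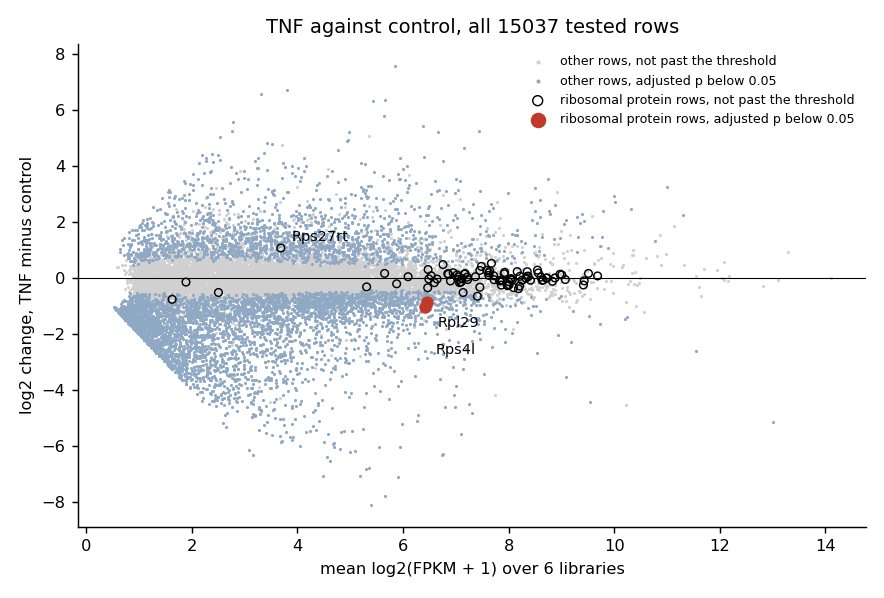
Log2 change, TNF minus control, against the mean log2(FPKM + 1) over the 6 libraries for all 15037 tested rows. Ribosomal protein rows are black circles, and red where past the adjusted p threshold of 0.05 in limma. They lie at high levels and close to 0, and the 2 that passed, Rpl29 and Rps4l, lie below the rest.

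Rpl29, a large subunit protein also known as a heparin-binding protein, was one of the pair that fell. Its row spans chr9:106429454-106431568 (mm10). It had 76.2, 55.8 and 62.0 FPKM in TNF replicates 1, 3 and 4, against 103, 123 and 128 FPKM in control replicates 1, 2 and 4. Every TNF library was below every control library. The means were 64.7 ± 10.5 FPKM in TNF cells and 118 ± 13.5 FPKM in control cells (SD, n = 3 each), a log2 change of -0.86 ± 0.18 (SE) with a limma adjusted p of 0.00991. Of the 50-base words in its GENCODE M21 transcripts, 35.1% also occur in transcripts of 82 other genes, processed pseudogenes among them. How such reads were counted is unknown here, so its value is uncertain.

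Rps4l, an autosomal copy of Rps4x, was the other. GENCODE M21 lists it as a transcribed processed pseudogene, and its row spans chr6:148232430-148444389, wider than the annotated gene at chr6:148354656-148355598. It had 83.3, 51.0 and 47.2 FPKM in TNF replicates 1, 3 and 4, against 106, 123 and 139 FPKM in control replicates 1, 2 and 4. Again no TNF library reached a control library. The means were 60.5 ± 19.8 FPKM in TNF cells and 123 ± 16.4 FPKM in control cells (SD, n = 3 each), a log2 change of -1.05 ± 0.25 (SE) with a limma adjusted p of 0.0165. This call was lost when any library but TNF replicate 1 was left out, with limma adjusted p between 0.0507 and 0.0655, while the log2 change stayed between -1.15 and -0.90. Rps4x, the X-linked form that most cells use, had 227, 118 and 131 FPKM in TNF cells, against 156, 152 and 106 FPKM in control cells, and its groups overlapped. The ratio of Rps4l to Rps4x in FPKM was 0.367, 0.432 and 0.361 in TNF replicates 1, 3 and 4, against 0.682, 0.810 and 1.31 in control replicates 1, 2 and 4. The ratio was lower in every TNF library, and the transcripts of the pair share none of their 50-base words.

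Other paralogs did not pass the test. Rps27rt was the row with groups apart and TNF cells higher. It had 40.3, 12.0 and 11.1 FPKM in TNF replicates 1, 3 and 4, against 10.4, 9.84 and 4.66 FPKM in control replicates 1, 2 and 4. The log2 change was 1.07 ± 0.53 (SE), with a limma adjusted p of 0.160, and most of the difference came from TNF replicate 1, without which it was 0.50. The ratio of Rps27rt to Rps27 in FPKM was 0.0260, 0.0198 and 0.0173 in TNF replicates 1, 3 and 4. It was 0.0104, 0.00984 and 0.00902 in control replicates 1, 2 and 4, so it was higher in every TNF library. With 91.1% of its words shared with the far more abundant Rps27, the level of Rps27rt may hold reads of that gene, and this was not tested.

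Rps27l, a paralog of Rps27 that p53 induces, had 563, 224 and 234 FPKM in TNF cells, against 282, 285 and 228 FPKM in control cells. Its ratio to Rps27 was 0.363, 0.371 and 0.367 in TNF replicates 1, 3 and 4, against 0.284, 0.284 and 0.442 in control replicates 1, 2 and 4, so the groups overlapped through control replicate 4. Rpl22 and its paralog Rpl22l1, RNA-binding proteins of the large subunit, were both highest in TNF replicate 1. Rpl22 had 227, 96.1 and 93.2 FPKM in TNF cells, against 97.1, 117 and 65.5 FPKM in control cells (log2 change 0.48, limma adjusted p 0.378, and 0.06 without TNF replicate 1). Rpl22l1 had 309.9, 179 and 158 FPKM in TNF cells, against 180.2, 141 and 144 FPKM in control cells (log2 change 0.41, limma adjusted p 0.291, and 0.12 without TNF replicate 1). Neither differed beyond the spread between replicates. Rpl36al and Rpl7l1, the other tested paralogs of the large subunit, had log2 changes of 0.23 and 0.16, with limma adjusted p of 0.517 and 0.503.

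The acidic stalk of the large subunit, which brings elongation factors to the ribosome, had 3 members and none passed the test. Rplp0, its base, was the steadiest, with 432, 361 and 367 FPKM in TNF cells, against 413, 461 and 358 FPKM in control cells (log2 change -0.08, limma adjusted p 0.763). Rplp1 had 435, 191 and 198 FPKM in TNF cells, against 346, 353 and 299 FPKM in control cells (log2 change -0.38, limma adjusted p 0.414). Rplp2 had 667, 335 and 311 FPKM in TNF cells, against 369, 416 and 252 FPKM in control cells (log2 change 0.28, limma adjusted p 0.568). With TNF replicate 1 left out the log2 change was -0.77 for Rplp1, with a limma adjusted p of 0.00761, and -0.07 for Rplp2. For Rplp1 and Rplp2, whose proteins pair on the stalk, TNF replicate 1 was the highest library, and TNF replicates 3 and 4 were below all controls for Rplp1 alone.

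Rpl5 and Rpl11 form a particle with 5S ribosomal RNA, and when free of the ribosome they bind Mdm2, the inhibitor of p53. Rpl5 had 75.1, 42.6 and 48.7 FPKM in TNF cells, against 62.9, 74.2 and 51.7 FPKM in control cells (log2 change -0.21, limma adjusted p 0.557). Rpl11 had 182, 87.2 and 93.3 FPKM in TNF cells, against 140.1, 134 and 98.2 FPKM in control cells (log2 change -0.10, limma adjusted p 0.822). In both genes TNF replicate 1 was the highest and TNF replicates 3 and 4 were below every control.

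Among proteins of the small subunit, Rps6, which S6 kinases phosphorylate downstream of mTOR, had 312, 176 and 199 FPKM in TNF cells, against 258, 260.1 and 194 FPKM in control cells. Rps27a, which is made as a fusion with ubiquitin, had 292, 121 and 133 FPKM in TNF cells, against 185, 188 and 122 FPKM in control cells. Rps19, mutated in many human cases of Diamond-Blackfan anaemia, had 625, 299 and 323 FPKM in TNF cells, against 472, 441 and 335 FPKM in control cells. These overlapped between groups, each with its highest value in TNF replicate 1. Rps14, whose loss in human 5q- syndrome impairs red cell formation, had 878, 401 and 418 FPKM in TNF cells, against 579, 555 and 512 FPKM in control cells. Rps20, in the head of the small subunit, had 396, 204 and 180.4 FPKM in TNF cells, against 181, 201 and 133 FPKM in control cells, with a log2 change of 0.53 and a limma adjusted p of 0.263. Its log2 change was 0.18 when TNF replicate 1 was left out, 0.35 when control replicate 4 was, and 0.01 when both were. Groups overlapped for these as well. Rpl39, a very small protein inside the exit tunnel of the large subunit, was among the members that stood farthest above the other TNF libraries in TNF replicate 1. This gene had 203, 67.8 and 68.0 FPKM in TNF cells, against 97.2, 84.8 and 60.1 FPKM in control cells (log2 change 0.30, limma adjusted p 0.633, and -0.22 without TNF replicate 1). Lists by place or disease gave no call with all libraries, 0 of 7 at the exit tunnel rim, 0 of 14 in the small subunit head and 0 of 16 Diamond-Blackfan anaemia genes, against 38.0% of all tested rows. Without TNF replicate 1 these lists gave 2, 1 and 2 lower, against 33.4% of all rows.

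Single libraries differed more than the group means did. Together the rows held 3.89%, 2.28% and 2.35% of FPKM in TNF replicates 1, 3 and 4, against 2.85%, 2.87% and 2.05% in control replicates 1, 2 and 4. TNF replicate 1 was above every control, TNF replicates 3 and 4 were below control replicates 1 and 2, and control replicate 4 was the lowest of all. Without Ftl1 in the total the shares were 3.94%, 2.29% and 2.36% in TNF cells, against 2.98%, 3.005% and 2.33% in control cells, which brings control replicate 4 level with TNF replicates 3 and 4.

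**Figure D3:**
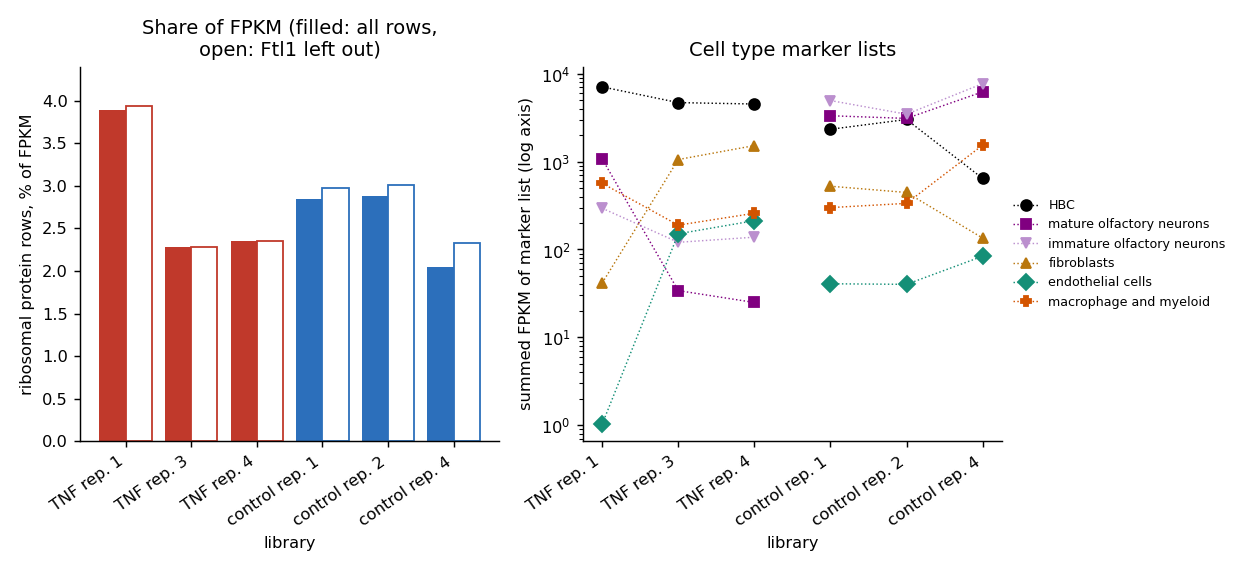
Left, share of FPKM (%) in ribosomal protein rows per library, of all rows (filled) and with Ftl1 left out (open), TNF in red and control in blue. Right, summed FPKM (log axis) of marker lists for HBCs and other cell types in the same libraries, joined within a group for reading only. TNF replicate 1 has the largest share, 3.89%, and the lowest endothelial sum, 1.03 FPKM.

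TNF replicate 1 had the highest value of all libraries for 77 of the 85 rows (90.6%), against 18.7% of all tested rows. Among the exceptions were Rplp0, Rpl21, Rpl27a, Rpl29 and Rps4l, each highest in a control library, and the low rows of Rpl37. Over the 85 rows TNF replicate 1 exceeded the mean of TNF replicates 3 and 4 by a median of 1.003 on the log2 scale, with quartiles of 0.84 and 1.17, against 0.09 over all tested rows. Both subunits moved alike, by a median of 0.97 in the large and 1.03 in the small subunit. TNF replicate 1 exceeded all controls for 90.6% of members, against 29.2% of all rows. TNF replicates 3 and 4 were both below all controls for 40 members (47.1%), against 47.3% of all rows. Relative to the control mean, TNF replicates 3 and 4 were lower by a median log2 difference of -0.37, against -0.27 over all rows. The share of members in which they lay below every control was thus at the background.

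Control replicate 4 was the other library that stood apart. It was below both other controls for 76 of the 85 rows (89.4%), against 38.9% of all rows, with a median log2 difference of -0.41 from their mean, against 0.03 over all rows. Rps27 showed it clearly, at 517 FPKM against 994 and 1000.4 FPKM.

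Marker genes of several cell types moved with these differences. In TNF replicate 1 each of 6 fibroblast and 6 endothelial markers was lower than in the other TNF libraries, and 1 of the endothelial markers was listed at 0. The HBC and mature neuron sums were higher there than in the other TNF libraries. In control replicate 4 the HBC sum was 643 FPKM, against 2334 and 3016 FPKM in the other controls, and 8 macrophage and myeloid markers summed to 1540 FPKM, against 299.7 and 335 FPKM. The myeloid sum was also raised in TNF replicate 1, at 567 FPKM against 189 and 258 FPKM in the other TNF libraries. No mature neuron, HBC or myeloid marker was at 0 in any library. The part of other cells in the ribosomal protein levels was not tested.

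Leaving out TNF replicate 1 changed the picture. Then 18 of the 85 rows (21.2%) were lower and 0 higher in TNF cells by limma, against 33.4% lower and 13.7% higher of 14727 tested rows. The members' median log2 change became -0.35, against -0.27 over all rows. Without control replicate 4 alone 1 of the 85 was lower, against 2192 of 13632 tested rows, and the medians were -0.14 and -0.16. These 18 were Rpl21, Rpl23, Rpl23a, the row of Rpl24 and Zbtb11, Rpl27, Rpl28, Rpl29, Rpl34, Rpl35, Rpl38, Rpl41, Rplp1, Rps4l, Rps13, Rps15, Rps15a, Rps24 and Rps19bp1. With median-of-ratios scaling as well, 6 (7.06%) were lower, against 24.8% of all rows.

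Rpl21, a large subunit protein linked to a hereditary hair loss in humans, was among the clearest. It had 209, 108 and 108 FPKM in TNF replicates 1, 3 and 4, against 224, 222 and 191 FPKM in control replicates 1, 2 and 4. Its log2 change was -0.65 with a limma adjusted p of 0.117 in all libraries, and with TNF replicate 1 left out it was -0.97 with a limma adjusted p of 0.00320. Rps13, of the small subunit, had 191, 86.1 and 96.9 FPKM in TNF cells, against 175, 173 and 156 FPKM in control cells. The limma adjusted p was 0.230 with all libraries and 0.00423 with TNF replicate 1 left out. In both genes TNF replicates 3 and 4 were below every control, and TNF replicate 1 was not. Rpl38, which in mouse embryos favours the translation of certain Hox mRNAs, had 809, 318 and 323 FPKM in TNF cells, against 467, 497 and 457 FPKM in control cells. Its limma adjusted p was 0.838 with all libraries and 0.0179 without TNF replicate 1.

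Leaving out both libraries that stood apart gave a larger count. Of the 85 rows 62 (72.9%) were lower and 0 higher in TNF replicates 3 and 4 than in control replicates 1 and 2 by limma, against 32.7% lower and 19.8% higher of 12779 tested rows. The members' median log2 change was -0.49, against -0.17 over all rows. With median-of-ratios scaling of the 4 libraries 35 (41.2%) were lower, against 23.6%, and the medians were -0.30 and 0.00. The direction of Rps27, which had a log2 change of 0.07 in all libraries, was then -0.68. This choice of libraries was made with earlier results of these data known, and it leaves 2 libraries a group. It takes out the TNF library that was highest for most members and the control that was lowest among controls for most, so lower members in TNF cells are in part built into the choice. Leaving out TNF replicate 1 alone likewise takes out the highest library for most members.

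**Figure D4:**
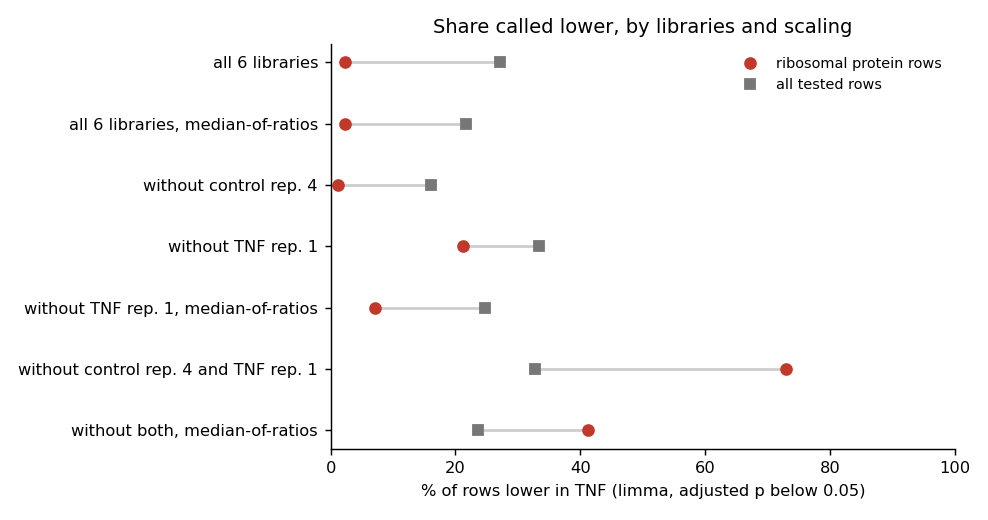
Share of rows (%) lower in TNF cells by limma at an adjusted p below 0.05, for ribosomal protein rows (red circles) and all tested rows (grey squares), by the libraries kept and the scaling. Among ribosomal protein rows the share was 2.35% with all 6 libraries, 21.2% with TNF replicate 1 left out and 72.9% with control replicate 4 left out as well.

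Ribosomal protein mRNAs are short, with a median transcript length of 713 bases for the 82 rows with a length, against 2171 bases over all tested rows. Short transcripts in general were higher in TNF replicate 1. Among rows with a mean of at least 50 FPKM, the median log2 difference of TNF replicate 1 from TNF replicates 3 and 4 was 1.11 for ribosomal proteins up to 500 bases, 1.07 from 500 to 750 bases, 0.90 from 750 to 1000 bases and 0.91 from 1000 to 1500 bases. All other rows of the same classes had 0.74, 0.64, 0.48 and 0.41. The 3 longer ribosomal protein rows had 0.61 (1500 to 2000 bases), 1.26 (2000 to 3000 bases) and 1.04 (3000 to 5000 bases), against 0.21, 0.07 and -0.03 for other rows of those classes. For control replicate 4 against the other controls, ribosomal protein rows of these classes had -0.40, -0.38, -0.42 and -0.54, against 0.18, 0.13, 0.06 and 0.08 for other rows. In each of the 7 classes up to 5000 bases the members thus stood above other rows in TNF replicate 1. Each of the 3 longest classes held 1 member row. Lengths are medians over the protein-coding transcripts annotated for a gene, and the transcript expressed may differ in length.

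**Figure D5:**
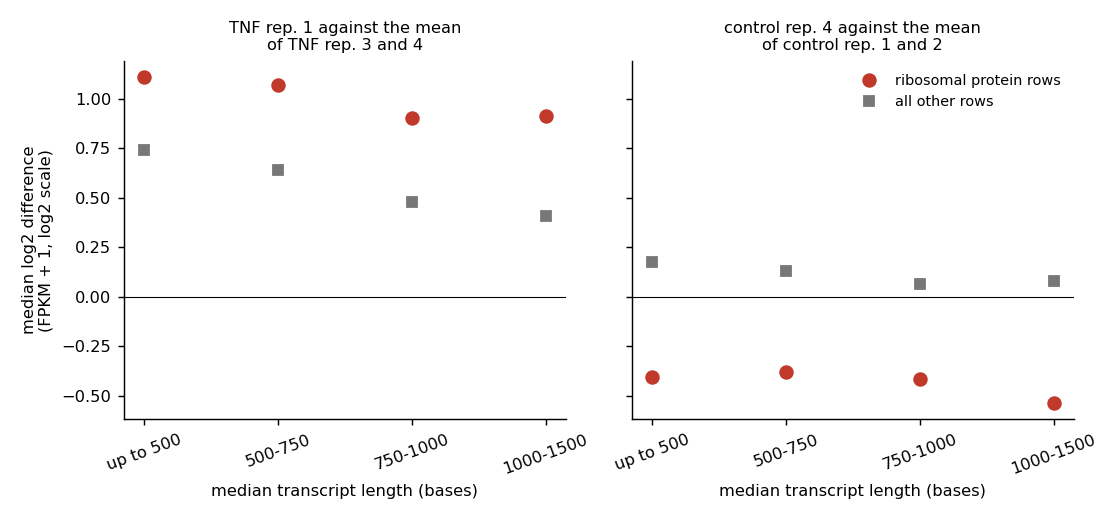
Median log2 difference by class of transcript length (bases) for ribosomal protein rows (red circles) and all other rows (grey squares), among rows of 1500 bases or less that average 50 FPKM or more. Left, TNF replicate 1 against the mean of TNF replicates 3 and 4, where both kinds of row are above 0 in these classes. Right, control replicate 4 against the mean of control replicates 1 and 2, where in these classes the ribosomal protein medians are below 0 and those of other rows above it.

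Other genes of translation were described beside the members, in lists chosen for their function. Ribosomal proteins also occur under other symbols. Fau, made as a fusion with a ubiquitin-like protein, had 259, 138 and 132 FPKM in TNF cells, against 228, 189.8 and 210.3 FPKM in control cells. It was highest in TNF replicate 1, and its groups overlapped.

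Of 17 other mRNAs with a TOP tract 1 rose and 1 fell in TNF cells by limma. Over all tested rows 10.9% rose and 27.2% fell. The median log2 change of the 17 was 0.02, against -0.22 over all rows. Pabpc1, the poly(A)-binding protein that stimulates translation, rose with 122, 62.2 and 55.5 FPKM in TNF cells, against 38.0, 41.5 and 35.2 FPKM in control cells (log2 change 0.96, limma adjusted p 0.0456). Nap1l1, a histone chaperone, fell with 66.6, 49.7 and 57.2 FPKM in TNF cells, against 83.8, 78.9 and 82.2 FPKM in control cells (log2 change -0.50, limma adjusted p 0.0457). Groups did not overlap for either gene. With median-of-ratios scaling limma called 0 of the 17 lower, so the call of Nap1l1 was lost. Eef1a1, which delivers charged tRNA, had 1119, 618 and 701 FPKM in TNF cells, against 787, 770.0 and 475 FPKM in control cells, and was highest in TNF replicate 1 and lowest in control replicate 4.

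Elongation factors gave 0 higher and 2 lower of 10 by limma, against 10.9% higher and 27.2% lower of all tested rows. The 2 lower ones were the row of Eif5a2 and Gm32950 and Eef1a2, both forms of limited tissue range. Eef1a2, the neuronal and muscle form of Eef1a1, had 1.05, 0.0233 and 0 FPKM in TNF cells, against 2.93, 3.08 and 6.97 FPKM in control cells. It was highest in control replicate 4 and, among TNF libraries, in TNF replicate 1, as was the sum of mature neuron markers. Initiation factors gave 1 higher and 2 lower of 34, against the same shares of all rows. Eif5, which triggers GTP hydrolysis at the start codon, rose with 185, 217 and 214 FPKM in TNF cells, against 143, 133 and 137 FPKM in control cells (log2 change 0.57, limma adjusted p 0.0246). Eif2b1 and Eif2b3, subunits of the exchange factor that recharges eIF2, fell with log2 changes of -0.73 and -0.60. None of these had groups that overlapped.

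Genes of ribosome assembly gave 2 higher and 2 lower of 55 by limma, against 10.9% higher and 27.2% lower of all tested rows. Sbds, which with Efl1 releases Eif6 from the new large subunit, rose with 88.1, 98.0 and 104 FPKM in TNF cells, against 59.6, 54.4 and 66.2 FPKM in control cells (log2 change 0.68, limma adjusted p 0.0132). Nol6, a nucleolar protein of small subunit assembly, rose with 31.8, 25.0 and 21.2 FPKM in TNF cells, against 7.81, 15.01 and 8.18 FPKM in control cells (log2 change 1.29). Rrp12, which takes part in the export of both subunits, fell with a log2 change of -0.93. Rrn3, an initiation factor of RNA polymerase I, fell with one of -0.60. Hosts of small nucleolar RNAs gave 0 higher and 1 lower of 8, against the same shares of all rows. The lower one was the row of Snhg5. Of 9 genes that sense and clear collided ribosomes 0 passed, against 38.0% of all tested rows. Their median log2 change was 0.38, against -0.22 over all tested rows.

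Calls among regulators stand beside 10.9% higher and 27.2% lower of all tested rows. Among 25 genes of mTOR and translational control Eif2ak3 (PERK), an eIF2 kinase of the endoplasmic reticulum, rose with 12.6, 15.2 and 16.4 FPKM in TNF cells, against 10.5, 9.23 and 8.07 FPKM in control cells (log2 change 0.61, limma adjusted p 0.0465), and 0 fell. Myc, a transcription factor that drives ribosome production, rose with 59.1, 106 and 95.1 FPKM in TNF cells, against 44.1, 55.1 and 27.3 FPKM in control cells (log2 change 1.04, limma adjusted p 0.0444). Mycn fell at low levels, with 0.493, 0.864 and 0.827 FPKM in TNF cells, against 1.92, 2.81 and 3.90 FPKM in control cells (log2 change -1.14).

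Mitochondrial ribosomal proteins serve a separate ribosome, which translates the few mRNAs of the mitochondrial genome. Of 79 tested rows 1 rose and 11 fell in TNF cells by limma, against 10.9% higher and 27.2% lower of all tested rows. The median log2 change was -0.33, against -0.22 over all rows. Mrpl50 had 30.9, 24.4 and 26.7 FPKM in TNF cells, against 52.9, 51.3 and 55.5 FPKM in control cells (log2 change -0.94, limma adjusted p 0.00364). Mrpl49 and Mrps22 both fell with a log2 change of -1.02, and Mrpl38 rose with one of 0.75. TNF replicate 1 exceeded TNF replicates 3 and 4 by a median of 0.67 on the log2 scale, against 1.003 for cytosolic ribosomal proteins. Control replicate 4 was above the other controls by 0.10, against -0.41 for cytosolic ribosomal proteins. Without TNF replicate 1 the counts became 1 higher and 51 lower of 78, against 13.7% higher and 33.4% lower of all rows.

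Scaling and the choice of libraries moved several of these counts. With median-of-ratios scaling limma called 1 higher and 4 lower mitochondrial ribosomal proteins, 3 higher and 1 lower among both the initiation factors and the assembly genes, 4 higher and 0 lower among mTOR and translational control genes, and 1 higher and 0 lower among the other TOP mRNAs. It also called 2 higher and 0 lower collision genes and 1 higher and 1 lower small nucleolar RNA host. Over all 15037 rows this scaling gave 2300 higher and 3257 lower. Without TNF replicate 1 the counts were 2 higher and 8 lower for initiation factors, 3 higher and 8 lower for assembly genes, 3 higher and 1 lower for mTOR and translational control, and 1 higher and 5 lower for the other TOP mRNAs. They were 0 higher and 4 lower for elongation factors, 0 higher and 3 lower for small nucleolar RNA hosts and 1 higher and 0 lower for collision genes, against 13.7% higher and 33.4% lower of all rows.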

How the data were processed

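The authors deposited a table of FPKM per library for sorted cells of 3 TNF and 3 control samples. Per the labels' protocols, 5 ng of RNA with a RIN above 7 was amplified with a SMARTer kit and made into Nextera libraries. TopHat2 2.1.1, Cuffdiff 2.2.1, FastQC 0.10.1 and bcl2fastq with the mm10 build are named per the submitters' processing notes, without their roles. Of the deposited FPKM values above 0, 99.98% were not whole, so no count model was used and intervals from depth were not computed. The table held 0 columns of other samples and 779 merged rows. Values shared by overlapping or near-identical genes are uncertain, since how strand and reads with several matches were handled is unknown. Whether the samples of a group came from separate animals is unstated in the labels, and p-values reflect only how far these samples differ, which may be technical.

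Rows that reached 1 FPKM in 3 or more libraries were fitted with limma 3.58.1 (R 4.3.3, with its trend option) on log2(FPKM + 1), that is with a pseudocount of 1, with the 2 groups and no covariate, and adjusted over all rows by the Benjamini-Hochberg method at 0.05. It was tested on simulated data in which each value varied independently, so shifts shared by many rows of a library were not covered. The members and lists were chosen with earlier results of these data known. Members named were those past the threshold, the 5 highest and 3 lowest in level, the 5 largest changes each way, the paralogs, the stalk, the 5S particle, Rps19, Rps14, Rps4x, Rps27a and Rps6. Of other lists, genes past the threshold with the smallest p and the highest in level were taken, not all of which are printed. A few of the named genes are not reported here. Rpl38, Rpl27a, Rps12l1, Rps12l2, the genes lower without TNF replicate 1 and the second rows were named after their values were seen. Promoters are from RefSeq (GRCm38.p6) and transcript words and lengths from GENCODE M21. Alternatives were a pseudocount of 0.1, no filter, 4 scalings, each library left out, a replicate block, a fold of 2 and an adjusted p of 0.01. The settings without TNF replicate 1, or without it and control replicate 4, combined with scaling were added after the data were seen.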

Additional observations from a re-analysis of the deposited data

How the results depend on the processing

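The count of ribosomal protein genes higher in TNF cells was 0 in every setting run. The count lower, 2 in the main result, ranged from 1 to 18 when single libraries were left out, 18 without TNF replicate 1. It was 62 without control replicate 4 and TNF replicate 1, and with median-of-ratios scaling added 35 there and 6 without TNF replicate 1. It was 1 at an adjusted p of 0.01 and 1 with a fold of at least 2. Over all rows 5718 changed in the main result, and 2475 to 6940 with single libraries left out. There were 3291 at an adjusted p of 0.01 and 4221 with a fold of at least 2. With libraries left out the log2 change ran from -0.38 to 0.38 for Rpl32, -0.41 to 0.57 for Rpl39, -0.68 to 0.31 for Rps27, -0.55 to 0.28 for Rps27a and -0.30 to 0.46 for Rps27l. Each lowest value came without both TNF replicate 1 and control replicate 4, where scaling gave -0.49 for Rps27 and -0.36 for Rps27a, past the threshold, and -0.19 for Rpl32, -0.22 for Rpl39 and -0.11 for Rps27l, not past it. The cause was not tested.

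The groups share replicate numbers 1 and 4, whose deviations correlated at -0.06 and -0.09 across rows. Libraries of unlike number correlated at -0.15 to 0.18, so this cannot decide whether the numbers pair the samples. With the replicate number as a block 0 members were lower, 2990 rows changed, and the limma adjusted p was 0.261 for Rpl29 and 0.173 for Rps4l. Depth is unknown, and 3 libraries a group limit what limma can detect.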
